A study of Mus musculus with 9 samples.

Results

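Chemokines are small secreted proteins that direct the migration of leukocytes, and their receptors are G protein-coupled receptors on the responding cells. The genes described here are all mouse genes in the deposited mRNA tables whose symbol begins with Ccl, Ccr, Cxcl, Cxcr or Ackr followed by a digit, or is Cx3cl1, Cx3cr1, Xcl1 or Xcr1. This rule, which uses names and no measured value, gave 66 gene IDs with 109 transcripts among 21950 genes with 50660 transcripts. They comprised 43 ligand IDs, 19 receptor IDs and 4 atypical receptor IDs. The 66 IDs carry 61 symbols, because the Ccl21 and Ccl27 loci are listed under several IDs.

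RNA of the renal cortex of 9 mice was sequenced, 1 library per mouse, with 3 mice in each of 3 groups. All mice were males of the C57BL/KsJ background aged 15 weeks. The control group (nondiabetic, db/m) was heterozygous for the db mutation of the leptin receptor gene and came from the same litters as the diabetic mice. The dbdb group (homozygous for db, type 2 diabetic) received a vehicle by gavage, and the dbR group (the same genotype) received rosiglitazone instead, 20 mg/kg/day by gavage over 8 weeks, starting when the mice were 7 weeks old. Every mouse of all 3 groups had at least 1 copy of the db mutation. All cells of the mouse lack the long leptin receptor in db/db mice, so an effect of the genotype on leukocytes and an effect of the diabetes cannot be told apart here.

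The values are FPKM, that is, fragments per kilobase of transcript, scaled to the mapped fragments of the library. The 9 libraries had relative depths of 0.915 to 1.14, with control replicate 1 set to 1. Mitochondrial genes held 26.9% to 32.8% of the mRNA FPKM. The tissue label was checked with proximal tubule markers, whose summed FPKM lay between 2260 and 2887 in every library. The library of dbdb replicate 3 stood apart in genes that interferon regulates. Cd74, the invariant chain of MHC class II, was at 872 FPKM there and at 57.6 and 77.7 in the other dbdb libraries, and Psmb8, an immunoproteasome subunit, was at 54.2 and at 2.10 and 3.65. Control replicate 1 stood apart in erythroid genes, whose summed FPKM was 70.5 there and 5.35 and 17.0 in the other control libraries. It also held the highest control values of Ccr2, Ccl5 and Cxcr3, given below, and what the erythroid difference has to do with them was not tested.

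In the textbook scheme, chemokines are grouped by the spacing of their conserved cysteines into CC, CXC, CX3C and XC families. Inflammatory chemokines such as CCL2, the ligand of CCR2 on monocytes, are induced in injured tissue. Homeostatic chemokines such as CXCL12, the ligand of CXCR4, are made constantly by stromal and epithelial cells. Atypical receptors bind chemokines without coupling to G proteins and act as scavengers. Rosiglitazone is an agonist of the nuclear receptor PPARgamma, and in the diabetic kidney the CCL2 and CCR2 axis is known for the recruitment of macrophages.

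Most members were low in the renal cortex, and a few homeostatic genes held most of the signal. Cxcl12 had the highest mean of the 9 libraries, 46.4 FPKM, followed by Ackr3, an atypical receptor for CXCL12, at 18.0 and Cx3cl1, the membrane-bound ligand of CX3CR1, at 14.7. Only these 3 reached a mean of 10 FPKM, and 16 members reached 1. The 5 highest ligands were Cxcl12, Cx3cl1, Ccl27a, Cxcl16 and Cxcl10. Ccl27a, an epithelial ligand of CCR10, had group means of 6.34 ± 1.62 FPKM in control, 7.27 ± 1.47 in dbdb and 6.28 ± 1.62 in dbR (SD, n = 3 in each group, as for all group means below). Cxcl16, the ligand of CXCR6, had means of 6.02 ± 0.248, 6.76 ± 2.91 and 6.36 ± 0.870. Its dbdb libraries were at 4.78, 5.40 and 10.1, of which all but replicate 3 lay below every control library, and the log2 difference of dbdb vs. control was 0.09 with that library (adjusted p = 0.818) and -0.24 without it (adjusted p = 0.185). The ranges of all 3 groups overlapped for both genes, so their order among the ligands was within their spread.

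**Figure D1:**
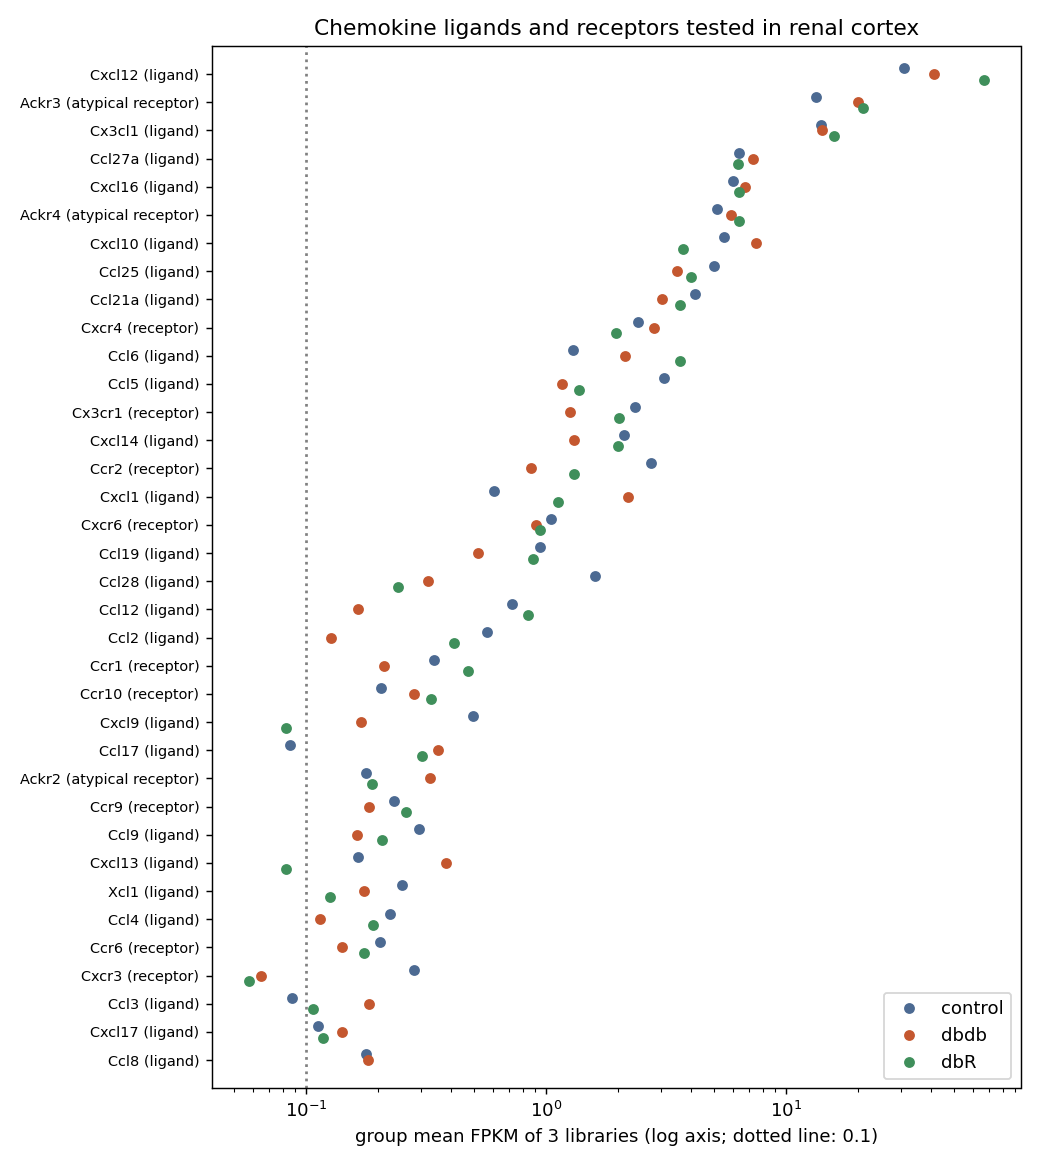
Group mean FPKM (log axis) of 36 of the 37 members with a mean of at least 0.1 over the 9 libraries, 1 point per group, ordered by the overall mean. Cxcl12, Ackr3 and Cx3cl1 sit to the right of 10 FPKM, among the receptors only Cxcr4, Cx3cr1 and Ccr2 have an overall mean above 1, and Ccl8 has no dbR point because it was listed at 0 in all 3 dbR libraries.

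Among the classical receptors, Cxcr4 was the highest. Cx3cr1, Ccr2 and Cxcr6 came next. Cxcr4 had means of 2.42 ± 0.262 FPKM in control, 2.83 ± 0.885 in dbdb and 1.95 ± 0.320 in dbR. Cxcr6, which is found on T and NKT cells, had means of 1.04 ± 0.314, 0.903 ± 0.256 and 0.941 ± 0.0811, with overlapping groups. The summed FPKM of all receptors in control was 11.3 ± 1.57, against 7.77 ± 1.18 in dbdb and 8.36 ± 0.307 in dbR. The highest dbdb and dbR sums, 9.11 and 8.60, lay below the lowest control sum, 9.53. Within this sum, Ccr2 had means of 2.75 FPKM in control and 0.863 in dbdb, and Cx3cr1 had means of 2.34 and 1.26. The sum without these genes was not computed, so the lower sums are not a result about the other receptors. The summed ligands were at 85.4 ± 9.78, 93.7 ± 20.6 and 118 ± 11.1, but without Cxcl12 the sums were 54.3 ± 6.37, 52.3 ± 14.0 and 51.7 ± 5.31, with overlapping ranges.

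Of the 66 members, 37 had a mean of at least 0.1 FPKM and were tested, namely 24 ligands, 10 receptors and 3 atypical receptors. log2(FPKM + 0.1) was fitted with limma across all 14537 genes that passed this limit, and a gene was called at an adjusted p under 0.05 over all of them. In dbdb vs. control, 10 of 37 members were called, against 26.4% of all genes tested. Of these, 1 was upregulated in dbdb (Cxcl12, against 13.1% of all genes) and 9 were downregulated (Ccr2, Ccl25, Cx3cr1, Ccl28, Ccl2, Ccl12, Cxcl14, Cxcl9 and Cxcr3, against 13.4%). The total is thus near the background, and the calls lay mostly on the lower side. The number of members called fell to 5, 6 and 6 when control replicate 1, 2 or 3 was left out (13.5%, 16.2% and 16.2% of the 37), while the calls over all genes fell to 21.4%, 20.6% and 19.0%.

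The scaling of the libraries moved this split. The summed mRNA FPKM was 675346 to 730057 in control and 594838 to 647995 in dbdb, while the share of mitochondrial genes was 28.2% to 29.98% and 28.2% to 30.1%. When the mitochondrial genes were left out and each library was rescaled to the same sum of the remaining FPKM, both done together, the median of all genes in dbdb vs. control moved from -0.00 to 0.15 (log2), and 78.3% of all calls were higher in dbdb instead of 49.5%. There, 4 members were called higher (Cxcl12, Ccl6, Ackr3 and Ackr4) and 6 lower (Ccr2, Ccl25, Cx3cr1, Ccl28, Ccl2 and Ccl12), that is 10.8% and 16.2% of the members, where 24.0% and 6.66% of all genes were called. Cxcl14, Cxcl9 and Cxcr3 were no longer called, with adjusted p-values of 0.0768, 0.0550 and 0.0508. The share of calls higher in dbR went from 75.9% to 48.6% in dbR vs. dbdb, and from 51.1% to 70.5% in dbR vs. control. With scaling to the 75th percentile, the share in dbR vs. control was 62.3%.

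No member was called by limma in dbR vs. dbdb, against 0.743% of all genes tested (108 genes). An unadjusted p under 0.05 was seen for 10 of the 37 members, against 17.5% of all genes. Of these 10, 7 were higher in dbR (Cxcl12, Ccl12, Ccr1, Cx3cr1, Ccl6, Cxcl14 and Ccl2) and 3 lower (Cxcl10, Cxcl13 and Cxcr4). In dbR vs. control, 7 members were called, against 24.1% of all genes. Cxcl12, Ccl6 and Ackr4 were upregulated in dbR (12.3% of all genes were) and Ccl28, Cxcl9, Cxcr3 and Ccr2 were downregulated (11.8%). This number fell to 3 without control replicate 1 or 2 and to 4 without dbR replicate 1 (8.11%, 8.11% and 10.8% of the 37), where 19.7%, 18.6% and 17.6% of all genes were called. Without dbdb replicate 3, 7 members were called in dbdb vs. control (Ccr2, Ccl25, Cx3cr1, Ccl28, Cxcl9, Ccl5 and Ackr4), 2 in dbR vs. dbdb (Cxcl12 and Ccl6) and 7 in dbR vs. control. These are 18.9%, 5.41% and 18.9% of the 37, where 21.4%, 0.970% and 24.6% of all genes were called. Each comparison shares 3 libraries with each of the others, so their results are not independent.

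The libraries themselves can be read without a model. In dbdb vs. control, 5 members (Cxcl12, Ackr3, Ackr2, Ccl6 and Cxcl13) were higher in each dbdb library than in any control library, against 21.2% of all genes, and 10 had them all below (Ccr2, Cx3cr1, Cxcr3, Ccr1, Ccr6, Ccr9, Ccl2, Ccl25, Ccl28 and Cxcl14), also against 21.2%. Between dbR and dbdb, 8 members had all dbR libraries above (Cxcl12, Ccl6, Ccl12, Ccl25, Ccr1, Ccr9, Cx3cr1 and Ackr4), against 10.7% of all genes, and 3 had them all below (Cxcl10, Cxcl13 and Ackr2), against 11.9%. The median log2 fold change of the 37 members was -0.19 for dbdb vs. control, where the median of all genes was -0.00, and 0.11 for dbR vs. dbdb, where it was again -0.00. By role, the 24 ligands divided evenly in dbdb vs. control, 12 higher and 12 lower, with a median of -0.05. Of the 10 receptors 8 were lower, with a median of -0.40, and all 3 atypical receptors were higher, with a median of 0.56, although none of these 3 was called.

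**Figure D2:**
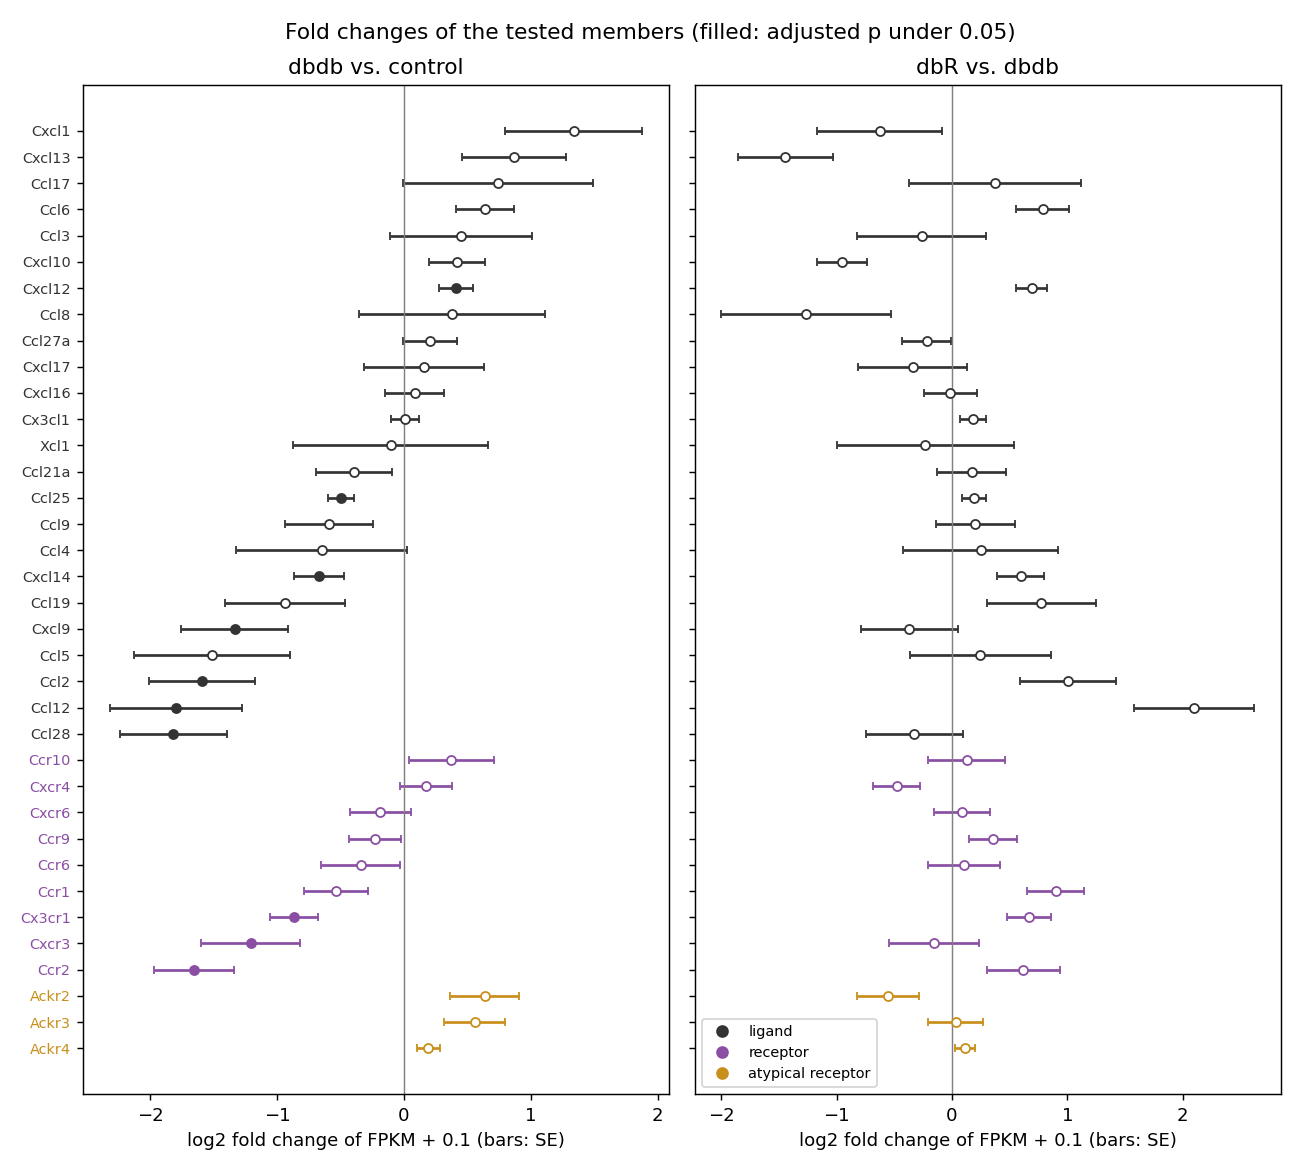
Log2 fold change of FPKM + 0.1 with its SE for 36 of the 37 tested members in dbdb vs. control (left) and dbR vs. dbdb (right), ordered within ligands, receptors and atypical receptors by the left panel. Filled points are called at an adjusted p under 0.05: 10 on the left, of which only Cxcl12 lies above 0, and 0 on the right.

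The upstream sequences of members that the results turn on are shown next, with the letters of 3 response elements searched in each. The windows hold the 250 bases before the RefSeq start (GRCm38.p6), and 30 of the 37 tested members had such a window. The direct repeat 1 (AGGNCANAGGNCA), an arrangement bound by PPAR and RXR dimers among other nuclear receptors, was in 0.338% of the 32851 windows of all genes and in 1 of the 30 members, Ccl6. The interferon-stimulated response element (GAAANNGAAA) was in 2.98% of all windows and in 3 of the 30 (Ccl19, Cxcl10 and Cxcl14). The NF-kappaB consensus was in 7.25% of all windows and in 6 of the 30 (Ackr2, Ccl9, Ccr1, Ccr6, Cxcl1 and Cxcl10). Both strands were searched, a member with several windows counted if any window held a match, and the matches describe letters only, not bound sites. Cxcl12, Ccr2 and Cxcl9 are shown as called members with no match, Ccl6 and Cxcl14 as called members with a match. Cxcl10, which was not called, was added after its values were seen, as the neighbour of Cxcl9 on chromosome 5. Capitals mark the matches. The starts are those of RefSeq, which differ from GENCODE M21 for Ccr2: there most of the window lies inside the GENCODE gene, after its first base at 124101950.
Cxcl12, chr6:117168285-117168534, plus strand: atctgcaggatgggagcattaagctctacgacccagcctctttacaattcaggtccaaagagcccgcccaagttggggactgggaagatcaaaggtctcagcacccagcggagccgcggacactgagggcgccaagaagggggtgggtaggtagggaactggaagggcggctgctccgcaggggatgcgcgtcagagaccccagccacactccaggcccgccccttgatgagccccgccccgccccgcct
Ccl6, chr11:83593088-83593337, minus strand: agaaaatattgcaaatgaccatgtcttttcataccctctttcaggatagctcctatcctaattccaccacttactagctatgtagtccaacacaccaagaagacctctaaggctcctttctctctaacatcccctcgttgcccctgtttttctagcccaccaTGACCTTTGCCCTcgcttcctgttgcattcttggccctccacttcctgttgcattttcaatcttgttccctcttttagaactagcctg
Cxcl14, chr13:56296552-56296801, minus strand: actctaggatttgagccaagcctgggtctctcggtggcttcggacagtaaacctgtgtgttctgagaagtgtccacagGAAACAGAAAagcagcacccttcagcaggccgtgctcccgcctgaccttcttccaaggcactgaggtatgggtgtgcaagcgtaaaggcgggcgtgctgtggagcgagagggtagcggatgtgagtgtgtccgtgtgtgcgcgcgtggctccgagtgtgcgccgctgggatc
Ccr2, chr9:124101933-124102182, plus strand: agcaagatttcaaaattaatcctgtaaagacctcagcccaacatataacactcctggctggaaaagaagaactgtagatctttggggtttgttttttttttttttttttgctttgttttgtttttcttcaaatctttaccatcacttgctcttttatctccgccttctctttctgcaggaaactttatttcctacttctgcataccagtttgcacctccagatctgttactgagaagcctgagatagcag
Cxcl9, chr5:92328080-92328329, minus strand: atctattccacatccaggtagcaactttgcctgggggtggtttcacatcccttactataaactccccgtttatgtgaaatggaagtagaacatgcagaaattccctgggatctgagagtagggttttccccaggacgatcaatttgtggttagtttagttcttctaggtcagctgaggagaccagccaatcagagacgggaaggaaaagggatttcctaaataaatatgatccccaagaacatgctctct
Cxcl10, chr5:92348890-92349139, minus strand: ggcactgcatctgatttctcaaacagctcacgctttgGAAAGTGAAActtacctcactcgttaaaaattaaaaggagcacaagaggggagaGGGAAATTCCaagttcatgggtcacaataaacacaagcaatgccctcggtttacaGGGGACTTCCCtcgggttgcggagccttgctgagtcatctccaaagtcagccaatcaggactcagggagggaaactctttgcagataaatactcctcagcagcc
In Ccl6 the direct repeat begins at base -88 from the start and reads on the opposite strand. In Cxcl14 the interferon element begins at -172. In Cxcl10 it begins at -213, and NF-kappaB matches begin at -159 and, overlapping each other, at -104 and -103. The interferon and NF-kappaB matches of Cxcl10 do not overlap.

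Cxcl12 was the most abundant chemokine in every library and the member with the smallest p in any comparison. CXCL12 retains CXCR4-bearing progenitors and leukocytes in tissues and is made in the kidney by stromal, endothelial and podocyte cells. Cxcl12 (ENSMUSG00000061353, chr6:117168535-117181367, plus strand, GRCm38) was at 31.8, 26.2 and 35.3 FPKM in the control libraries, at 38.0, 36.9 and 49.3 in the dbdb libraries and at 63.5, 74.5 and 61.9 in the dbR libraries. The 3 groups did not overlap, and the order was control, dbdb, dbR. Against control, Cxcl12 was upregulated by 0.41 ± 0.13 on the log2 scale in dbdb (SE, adjusted p = 0.0470) and by 1.10 ± 0.13 in dbR (adjusted p = 0.000414). The difference between dbR and dbdb was 0.69 ± 0.13, with an unadjusted p of 0.000444 and an adjusted p of 0.0517. It made up 36.4 ± 2.75% of the summed ligand FPKM in control, 44.6 ± 3.24% in dbdb and 56.3 ± 2.14% in dbR.

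The calls of Cxcl12 differed in how much they rested on single libraries. The call of dbR vs. control stood without any 1 library, with adjusted p-values of 0.000193 to 0.00277. That of dbdb vs. control was lost without control replicate 1 or 2, dbdb replicate 1 or 3, or dbR replicate 1 or 3 (adjusted p = 0.0568 to 0.148). It was also lost with no limit on low values (adjusted p = 0.0703), with only the 6 libraries compared (0.0714), with no variance trend (0.0820) and among single transcripts (0.232). With the replicate number as a block it was lost as well. Cxcl12 was called in dbR vs. dbdb without control replicate 2 or dbdb replicate 3 (adjusted p = 0.0492 and 0.0300), and also with scaling to the 75th percentile, with quantile normalization and among genes of at least 1 FPKM. Markers of cells that can make CXCL12 also differed between the groups. All 4 endothelial markers were downregulated in dbdb vs. control (3 without dbdb replicate 3, when Cdh5 was not called), and Emcn and Kdr were upregulated in dbR vs. dbdb, with summed FPKM of 90.0 to 98.7 in control, 63.3 to 69.1 in dbdb and 90.3 to 108 in dbR. The 4 fibroblast and pericyte markers summed to 17.9 to 26.5, 16.9 to 23.8 and 27.2 to 36.4. Of them, 0 were called in dbdb vs. control, Pdgfrb was upregulated in dbR vs. dbdb, and Pdgfrb and Pdgfra were upregulated in dbR vs. control. In dbR vs. control, 3 of the 4 had a fitted fold change above 0 and 1 below. Leaving out dbdb replicate 3, Pdgfrb was called lower in dbdb vs. control, and both Pdgfrb and Pdgfra were called higher in dbR vs. dbdb. Of 4 podocyte markers, Nphs1 and Podxl were upregulated in dbdb vs. control (by 0.86 and 0.36) and in dbR vs. control (by 0.74 and 0.37), and 0 were called in dbR vs. dbdb. Of all genes tested, 13.1% were called higher and 13.4% lower in dbdb vs. control. In dbR vs. dbdb 0.743% were called, and in dbR vs. control 12.3% were called higher. None of these 12 markers was at 0 in any library, and the part of the markers in the Cxcl12 levels was not tested.

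The receptors of CXCL12 were not called. Cxcr4, the signalling receptor, was at 2.25, 2.72 and 2.30 FPKM in control, 3.75, 1.99 and 2.74 in dbdb and 1.71, 1.83 and 2.31 in dbR. The groups overlapped, and dbR vs. dbdb gave -0.48 ± 0.21 (unadjusted p = 0.0428, adjusted p = 0.268), or -0.26 without dbdb replicate 1 (adjusted p = 0.510). Ackr3, which removes CXCL12, was at 13.7, 14.9 and 11.4 in control, 15.7, 19.1 and 25.0 in dbdb and 13.7, 21.1 and 27.7 in dbR. Its dbdb libraries all lay above the control libraries, yet at 0.56 ± 0.24 the adjusted p was 0.114. Without dbR replicate 1, Ackr3 was called against control in dbdb (adjusted p = 0.0469) and likewise in dbR (adjusted p = 0.0190).

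**Figure D3:**
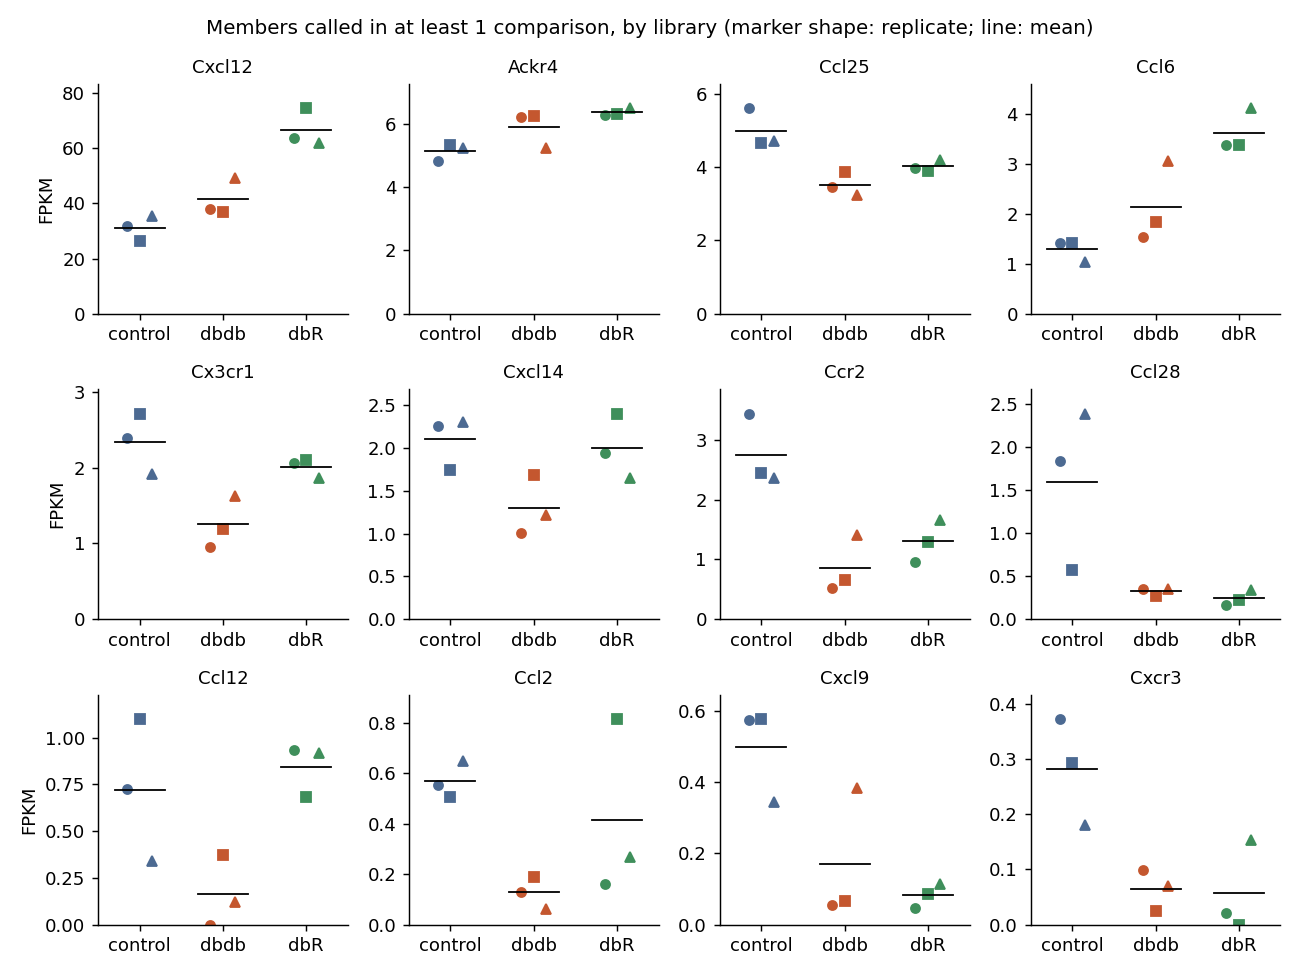
FPKM of the 12 members called in at least 1 of the 3 comparisons, 1 point per library with the replicate number as the marker shape and the group mean as a line, each panel with its own axis from 0. Cxcl12 and Ccl6 have all 3 dbR libraries on top, Ccr2, Cxcl9, Cxcr3 and Ccl28 have their highest libraries in control, and Ccl12, Cxcl14 and Cx3cr1 have their lowest means in dbdb.

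Ccr2 and the CCR2 ligands Ccl2 and Ccl12 were downregulated in dbdb vs. control. CCR2 brings inflammatory monocytes out of the bone marrow and into tissues, and in mice CCL2 and CCL12 are among its ligands. Ccr2 (ENSMUSG00000049103, chr9:124101950-124113557, plus strand) was at 3.44, 2.44 and 2.36 FPKM in control, 0.520, 0.664 and 1.41 in dbdb and 0.949, 1.30 and 1.65 in dbR. All 6 diabetic libraries lay below all 3 control libraries, and those of dbdb and dbR overlapped. Control replicate 1 held the highest value, and without it Ccr2 differed by -1.49 in dbdb vs. control (adjusted p = 0.0184). Ccr2 was downregulated by 1.65 ± 0.32 on the log2 scale in dbdb vs. control (adjusted p = 0.00446), and this stood without any 1 library (adjusted p = 0.000636 to 0.0192) and in every other alternative. In dbR vs. control it was downregulated by 1.03 ± 0.32 (adjusted p = 0.0395), a call lost without any 1 control library, dbdb replicate 2, or dbR replicate 1 or 2 (adjusted p = 0.0508 to 0.132), and also with no limit on low values, without mitochondrial genes, with no variance trend and among single transcripts (adjusted p = 0.0645, 0.0571, 0.0629 and 0.340). Between dbR and dbdb, Ccr2 differed by 0.62 ± 0.32 (adjusted p = 0.348). The FPKM of Ccr2 is a sum over 4 transcripts, all of which were lower on average in dbdb than in control, and in the fit of single transcripts Ccr2 was the only member called in dbdb vs. control.

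Ccl2 and Ccl12 lie in the same cluster on chromosome 11, and both were low. Ccl2 (ENSMUSG00000035385, chr11:82035571-82037453, plus strand) was at 0.552, 0.507 and 0.649 FPKM in control, 0.130, 0.190 and 0.0619 in dbdb and 0.160, 0.813 and 0.268 in dbR. From the steps between low FPKM values this corresponds to about 9, 8 and 11 fragments in control, 2, 3 and 1 in dbdb and 3, 14 and 4 in dbR. Every dbdb library lay below every control library, and dbR replicate 2 was the highest of all 9. Ccl2 was downregulated by 1.59 ± 0.42 in dbdb vs. control (adjusted p = 0.0193). The call was lost without control replicate 3 or dbdb replicate 3 (adjusted p = 0.0603 and 0.0594). The difference of dbR vs. dbdb was 1.0 ± 0.42 (unadjusted p = 0.0370, adjusted p = 0.252), and 0.48 without dbR replicate 2 (adjusted p = 0.584).

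Ccl12 (ENSMUSG00000035352, chr11:82101845-82103400, plus strand) was at 0.726, 1.10 and 0.343 FPKM in control, 0, 0.372 and 0.121 in dbdb and 0.931, 0.681 and 0.918 in dbR. These are about 6, 9 and 3 fragments, then 0, 3 and 1, then 9, 6 and 7. The control and dbdb ranges overlapped, and the dbR libraries all lay above the dbdb libraries. Ccl12 was downregulated by 1.80 ± 0.52 in dbdb vs. control (adjusted p = 0.0289), and the difference of dbR vs. dbdb was 2.10 ± 0.52 with an unadjusted p of 0.00235 and an adjusted p of 0.0846, the largest fold change of any member there. With so few fragments both folds depend on the pseudocount, and so does the call. With a pseudocount of 0.01 the dbdb vs. control value was -3.06 and not called (adjusted p = 0.0596). The call was also lost with only the 6 libraries compared (adjusted p = 0.0622), and without control replicate 1 or 2 or dbdb replicate 1 or 3 (adjusted p = 0.0602 to 0.0969). Ccl7, a further CCR2 ligand, and Ccl8, both of the same cluster, had at most 4 fragments in any library.

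Cx3cr1 fell in dbdb vs. control, whereas its ligand was not called. CX3CR1 marks patrolling monocytes and the resident macrophages and dendritic cells of the kidney. Cx3cr1 (ENSMUSG00000052336, chr9:119901616-120069879, minus strand) was at 2.40, 2.71 and 1.92 FPKM in control, 0.947, 1.19 and 1.63 in dbdb and 2.06, 2.10 and 1.87 in dbR. The dbdb libraries lay below all others, and control and dbR overlapped. Cx3cr1 was downregulated by 0.87 ± 0.19 in dbdb vs. control (adjusted p = 0.00800), which stood without any 1 library (adjusted p = 0.00269 to 0.0323). The dbR libraries differed from those of dbdb by 0.67 ± 0.19 (unadjusted p = 0.00528, adjusted p = 0.116). Cx3cl1 had means of 14.0 ± 0.756 FPKM in control, 14.1 ± 2.50 in dbdb and 15.9 ± 0.909 in dbR, and dbdb vs. control gave 0.01 ± 0.11 (adjusted p = 0.972).

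Macrophage markers were lower in dbdb too. Of 11 macrophage and monocyte markers, all 11 had a fitted log2 fold change below 0 in dbdb vs. control and 6 were called lower (54.5%, against 13.4% of all genes), with a median of -0.92. When dbdb replicate 3 was left out, 9 were called lower, where 11.02% of all genes were. On the FPKM scale Cd14 had a dbdb mean of 1.83 and a control mean of 1.81. Between dbR and dbdb all 11 were higher in dbR, with a median of 0.48, and 0 were called. Their summed FPKM lay at 60.4 to 74.6 in control, 30.5 to 48.1 in dbdb and 41.6 to 53.3 in dbR, and none was at 0 in any library. Ptprc, the pan-leukocyte CD45, was downregulated by 1.39 ± 0.18 in dbdb vs. control (adjusted p = 0.000527), and Csf1r, the receptor of macrophage colony-stimulating factor, by 1.37 ± 0.14 (adjusted p = 0.000176). These values stand beside those of the receptors, and their part in the levels of Ccr2 and Cx3cr1 was not tested. In RNA of a whole tissue, fewer cells of a type and less RNA per cell cannot be told apart.

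**Figure D4:**
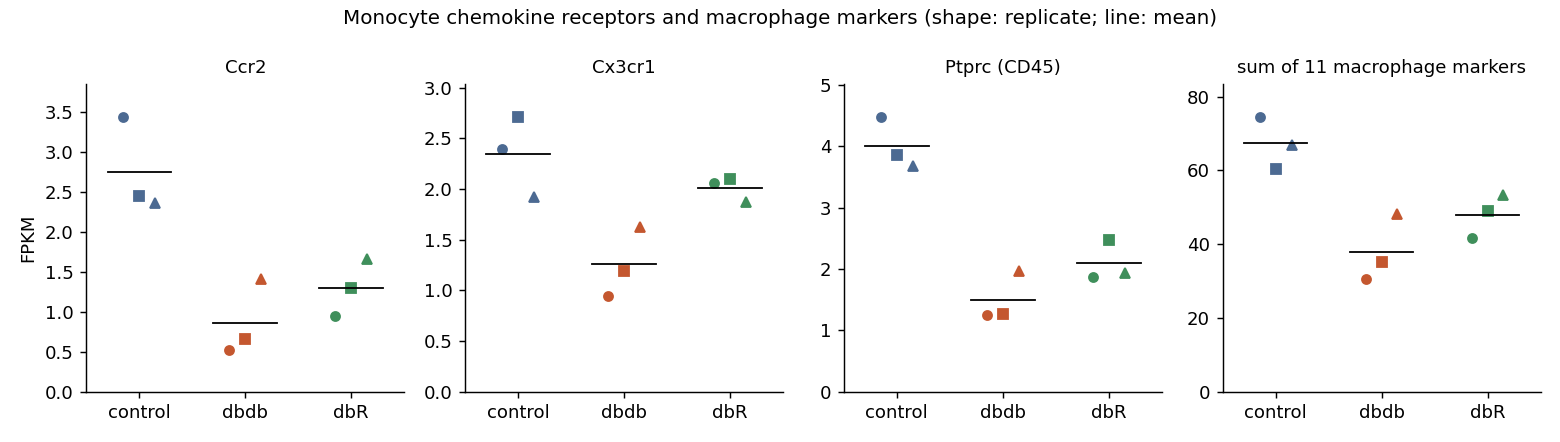
FPKM of Ccr2, Cx3cr1 and Ptprc and the summed FPKM of 11 macrophage and monocyte markers, 1 point per library with the group mean as a line and axes from 0. In all 4 panels each dbdb library lies below each control library, and the dbR libraries overlap those of dbdb except for Cx3cr1, where they lie above.

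Cxcr3 and Cxcl9 were downregulated in both diabetic groups, and Cxcl10 was not called. CXCR3 guides activated T and NK cells, and its ligands CXCL9 and CXCL10 are induced by interferon. Cxcr3 (ENSMUSG00000050232, chrX:101731535-101734269, minus strand) was at 0.372, 0.293 and 0.181 FPKM in control, 0.0991, 0.0241 and 0.0708 in dbdb and 0.0204, 0 and 0.153 in dbR. These values are about 16, 12 and 8 fragments, then 4, 1 and 3, then 1, 0 and 6. All 6 diabetic libraries lay below the control libraries. Against control, Cxcr3 was downregulated by 1.21 ± 0.39 in dbdb (adjusted p = 0.0453) and by 1.37 ± 0.39 in dbR (adjusted p = 0.0301). The dbdb vs. control call was lost without any 1 control library, any 1 dbdb library or dbR replicate 1 (adjusted p = 0.0518 to 0.136), and the other call without control replicate 1 or 2 or dbR replicate 1 or 2 (adjusted p = 0.0797 to 0.0991). With a pseudocount of 0.01 neither was called (adjusted p = 0.142 and 0.0510), and with quantile normalization the dbdb vs. control call was lost (0.0529). The dbdb vs. control call was also lost with the replicate number as a block, and neither call stood among single transcripts.

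Cxcl9 (ENSMUSG00000029417, chr5:92321347-92328079, minus strand) was at 0.574, 0.577 and 0.344 FPKM in control, 0.0556, 0.0677 and 0.385 in dbdb and 0.0460, 0.0871 and 0.114 in dbR. These are about 44, 42 and 27 fragments, then 4, 5 and 29, then 4, 7 and 8. Only dbdb replicate 3 among the diabetic libraries reached the control range. Cxcl9 was downregulated by 1.33 ± 0.42 in dbdb vs. control (adjusted p = 0.0416), with an adjusted p of 0.00322 without dbdb replicate 3 and of 0.0504 to 0.131 without any other library. That call was also lost with a pseudocount of 0.01, with no limit on low values, with only the 6 libraries compared and with no variance trend (adjusted p = 0.0544, 0.0516, 0.0700 and 0.0521). The replicate number as a block ended that call as well. In dbR vs. control Cxcl9 was downregulated by 1.70 ± 0.42 (adjusted p = 0.0161), a call lost without control replicate 1 or 2 or dbR replicate 1 (adjusted p = 0.0509 to 0.0576) and among single transcripts.

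Cxcl10 (ENSMUSG00000034855, chr5:92346638-92348889, minus strand) was at 6.81, 4.68 and 5.01 FPKM in control, 5.28, 7.36 and 9.93 in dbdb and 3.62, 4.31 and 3.26 in dbR. The dbR libraries were the lowest 3 of the 9, and control and dbdb overlapped. It differed in dbR vs. dbdb by -0.96 ± 0.22 (unadjusted p = 0.00136, adjusted p = 0.0718). Against control the dbR value was -0.54 ± 0.22 (adjusted p = 0.101). In that comparison Cxcl10 was called without dbdb replicate 1 (adjusted p = 0.0485) and with only the 6 libraries compared (0.0432). The adjusted p of dbR vs. dbdb lay between 0.0528 and 0.198 without any 1 library, and was 0.117 without dbdb replicate 3.

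The number of interferon-regulated genes called outside the family in dbdb vs. control depended on dbdb replicate 3. Of 26 tested genes of the interferon list, 0 were called higher and 4 lower in dbdb vs. control (Ifi44, Oas1a, Irf3 and Ifngr2), that is 15.4% against 13.4% of all genes, with a median of -0.08. Without dbdb replicate 3, 11 of the 26 were called lower and 0 higher, with a median of -0.32, where 11.02% of all genes were called lower. Rsad2 was called higher in dbR vs. dbdb, by 0.63 ± 0.12 (adjusted p = 0.0460). It was at 7.70, 7.58 and 7.27 FPKM in the dbdb libraries. Although dbdb replicate 3 lay near the other dbdb libraries for Rsad2, this call was lost without it, which left 0 of the list's genes called there. Ifng itself had a mean under 0.1 FPKM. The summed list lay at 171 to 203 FPKM in control and 164 to 189 in dbR, and in dbdb at 137, 146 and 316, the last in dbdb replicate 3. Gbp2, a guanylate-binding protein, was at 23.4 in that library and at 1.36 and 1.61 in the other dbdb libraries. Of the lymphocyte markers, 1 of 6 T cell markers (Cd4) and 0 of 4 NK cell markers were called lower in dbdb vs. control, against 13.4% of all genes. With dbdb replicate 3 left out, 3 of the 4 NK cell markers were called lower (Gzma, Klrk1 and Nkg7), with a median of -1.38. The summed T cell markers lay at 1.36 to 3.47 in control, 0.779 to 1.24 in dbdb and 0.800 to 1.33 in dbR, and the NK cell markers at 1.51 to 2.93, 0.538 to 2.86 and 0.651 to 1.13. The highest T cell sum was that of control replicate 1, with 2.24 and 1.36 in the other control libraries. Cd3d and Cd2 were at 0 in some libraries, and the part of these cells in the Cxcr3 and Cxcl9 levels was not tested.

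**Figure D5:**
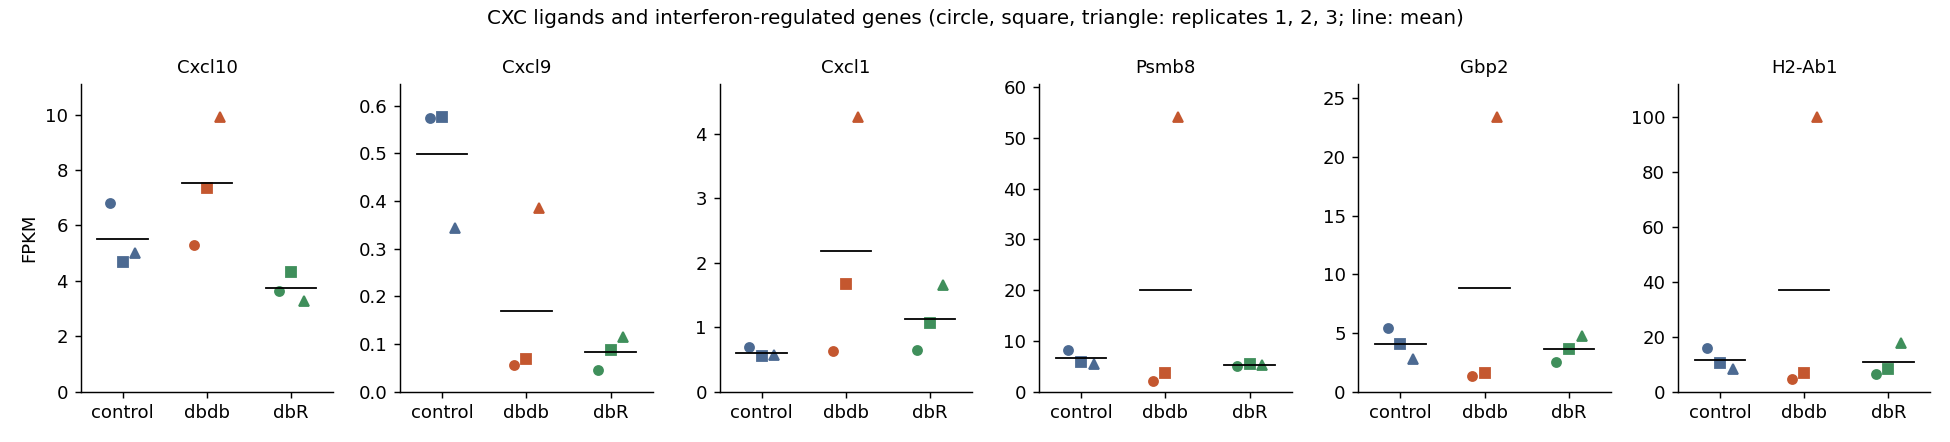
FPKM of Cxcl10, Cxcl9 and Cxcl1 and of the interferon-regulated genes Psmb8, Gbp2 and H2-Ab1 by library, with circle, square and triangle for replicates 1, 2 and 3, the group mean as a line and axes from 0. The triangle of dbdb is the highest point in every panel except that of Cxcl9, where 2 control libraries are higher.

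The epithelial chemokines Ccl28, Ccl25 and Cxcl14 were downregulated in dbdb vs. control. CCL28 is a mucosal ligand of CCR10 and CCR3, and its gene is among those with the largest fitted decreases, beside Ccl12 and Ccr2. Ccl28 (ENSMUSG00000074715, chr13:119623819-119654359, plus strand) was at 1.84, 0.573 and 2.38 FPKM in control, 0.347, 0.267 and 0.352 in dbdb and 0.165, 0.226 and 0.335 in dbR. These are about 186, 55 and 248 fragments in control, against 19 to 35 in the diabetic libraries. No diabetic library reached the lowest control library, which itself lay far below the other control libraries. Against control, Ccl28 was downregulated by 1.82 ± 0.42 in dbdb (adjusted p = 0.0110) and by 2.14 ± 0.42 in dbR (adjusted p = 0.00529). Both calls stood without any 1 library, with adjusted p-values of at most 0.0407 and 0.0243. Between dbR and dbdb the difference was -0.33 ± 0.42 (adjusted p = 0.738). Its receptor Ccr10 had means of 0.206 ± 0.104, 0.283 ± 0.0584 and 0.330 ± 0.132, with overlapping groups.

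Ccl25, known for guiding CCR9-bearing lymphocytes to gut and thymus, differed by less but with a smaller spread. Ccl25 (ENSMUSG00000023235, chr8:4325210-4360020, plus strand) was at 5.61, 4.66 and 4.72 FPKM in control, 3.45, 3.87 and 3.24 in dbdb and 3.97, 3.91 and 4.19 in dbR. The 3 groups did not overlap, with dbR between dbdb and control. Ccl25 was downregulated by 0.49 ± 0.10 in dbdb vs. control (adjusted p = 0.00638), which stood without any 1 library (adjusted p = 0.00839 to 0.0230). The difference was -0.30 ± 0.10 for dbR vs. control (adjusted p = 0.0570) and 0.19 ± 0.10 for dbR vs. dbdb (adjusted p = 0.366). With quantile normalization and among genes of at least 1 FPKM, Ccl25 was called lower in dbR vs. control (smallest adjusted p = 0.0248). Ccr9, its receptor, had means of 0.232 ± 0.0273, 0.183 ± 0.0265 and 0.262 ± 0.0361, and the dbdb libraries were the lowest 3, at an adjusted p of 0.446 in dbdb vs. control.

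Cxcl14, a chemokine of epithelia whose receptor is debated, was lowest in dbdb. Cxcl14 (ENSMUSG00000021508, chr13:56288643-56296551, minus strand) was at 2.26, 1.75 and 2.30 FPKM in control, 1.0, 1.68 and 1.22 in dbdb and 1.94, 2.40 and 1.65 in dbR. The dbdb libraries lay below the control libraries, and dbR overlapped both. Cxcl14 was downregulated by 0.67 ± 0.20 in dbdb vs. control (adjusted p = 0.0337). The call was lost without control replicate 1 or 3 or dbdb replicate 1 or 3 (adjusted p = 0.0786 to 0.103). It was also lost with no limit on low values (0.0544) and with the replicate number as a block. For dbR vs. dbdb the value was 0.59 ± 0.20 (unadjusted p = 0.0142, adjusted p = 0.171). Of the tubular markers in dbdb vs. control, 1 of 5 proximal tubule markers was called lower (Slc22a6) and 1 higher (Slc5a2), and 2 of 4 loop and distal tubule markers were called higher (Aqp2 and Slc12a3), with Umod called lower when dbdb replicate 3 was left out. With all libraries, 13.1% of all genes were called higher and 13.4% lower. Podocyte markers summed to 69.9 to 80.2 FPKM in control, 82.2 to 87.7 in dbdb and 75.2 to 92.7 in dbR. Adipocyte markers summed to under 0.8 FPKM, lymphatic and lymph node markers to 1.48 to 2.13 and erythroid markers to 5.35 to 70.5 in the 9 libraries, with 0 of them called.

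Ccl6 was upregulated in dbR vs. control. CCL6 is a rodent chemokine of myeloid cells that acts through CCR1. Ccl6 (ENSMUSG00000018927, chr11:83587882-83593087, minus strand) was at 1.42, 1.42 and 1.04 FPKM in control, 1.54, 1.83 and 3.05 in dbdb and 3.38, 3.39 and 4.12 in dbR. The 3 groups did not overlap. Ccl6 was upregulated in dbR vs. control by 1.43 ± 0.23 (adjusted p = 0.00171), which stood without any 1 library (adjusted p = 0.000263 to 0.00905). It differed by 0.64 ± 0.23 in dbdb vs. control (adjusted p = 0.0621), by 0.84 without dbdb replicate 1 (adjusted p = 0.0265) and by 0.36 without dbdb replicate 3 (adjusted p = 0.157). The dbR vs. dbdb value was 0.79 ± 0.23 (unadjusted p = 0.00605, adjusted p = 0.124, or 0.0359 without dbdb replicate 3). The summed macrophage markers, of cells that CCL6 is known from, were lower in each diabetic library than in any control library, while Ccl6 was higher in each, and their part in its level was not tested.

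Other myeloid ligands and receptors were not called. Ccr1 was at 0.373, 0.309 and 0.339 FPKM in control, 0.128, 0.208 and 0.298 in dbdb and 0.470, 0.585 and 0.365 in dbR. The dbdb libraries were the lowest 3 of the 9, and dbR vs. dbdb gave 0.90 ± 0.25 (unadjusted p = 0.00476, adjusted p = 0.110). Ccl9, the neighbour of Ccl6 and also a CCR1 ligand, had means of 0.294 ± 0.106, 0.163 ± 0.0731 and 0.207 ± 0.112. Ccl5, a ligand from T cells and macrophages, was at 4.93, 1.74 and 2.67 in control, 0.520, 0.631 and 2.33 in dbdb and 0.737, 0.693 and 2.67 in dbR. For dbdb vs. control the value was -1.51 ± 0.61 (unadjusted p = 0.0335, adjusted p = 0.0965), and without dbdb replicate 3 it was called (adjusted p = 0.0235). Without control replicate 1, which held its highest value, the difference was -1.13 (adjusted p = 0.259). Ccl3 and Ccl4 had at most 6 fragments in any library.

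The neutrophil ligand Cxcl1 was high in part of the dbdb group. Cxcl1, which acts through CXCR2 and is made by injured tubules, was at 0.688, 0.561 and 0.569 FPKM in control, 0.626, 1.68 and 4.27 in dbdb and 0.642, 1.07 and 1.66 in dbR, or about 11 to 14, 12 to 86 and 15 to 31 fragments. In each diabetic group 1 library lay within the control range and the others above it, with dbdb replicate 3 the highest. The difference of dbdb vs. control was 1.34 ± 0.54 (unadjusted p = 0.0329, adjusted p = 0.0953), and it was 0.69 without dbdb replicate 3 (adjusted p = 0.265) and 1.98 without dbdb replicate 1 (adjusted p = 0.00968). Cxcl2, Cxcl5, Cxcr1 and Cxcr2 had means under 0.1 FPKM, and Cxcl3 was listed at 0 in all libraries. Of 4 tested neutrophil markers, 2 were higher and 2 lower in dbdb vs. control, with a median of 0.08. S100a8 was called higher (25% of the 4, against 13.1% of all genes), S100a9 was at 0.65, Csf3r at -0.49 and Retnlg at -0.57. When dbdb replicate 3 was left out, 0 of the 4 were called, with a median of -0.04. Ly6g, a defining marker, was at 0 in some libraries. The 5 neutrophil markers summed to 2.79 to 4.61 FPKM in control, 3.95 to 6.96 in dbdb and 5.20 to 8.78 in dbR, mostly from S100a8 and S100a9.

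Chemokines of lymphoid tissue were mixed. Cxcl13, which draws B cells through CXCR5, was at 0.153, 0.0799 and 0.260 FPKM in control, 0.285, 0.278 and 0.582 in dbdb and 0.101, 0.146 and 0 in dbR, or 2 to 7, 7 to 15 and 0 to 4 fragments. The dbdb libraries were the highest 3, and dbR vs. dbdb gave -1.44 ± 0.41 (unadjusted p = 0.00549, adjusted p = 0.118). Ccl19 and Ccl21a, the ligands of CCR7, had means of 0.945 ± 0.194, 0.520 ± 0.338 and 0.879 ± 0.373 and of 4.19 ± 1.57, 3.05 ± 0.455 and 3.60 ± 1.43, with overlapping groups. Ccl21a shares its sequence with near-identical copies, and Ccl27a likewise, so the division of reads between their copies is uncertain. Ccr6, the receptor of CCL20, had means of 0.204 ± 0.0156, 0.141 ± 0.0307 and 0.175 ± 0.122.

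Ackr4, the scavenger of CCL19, CCL21 and CCL25, was the only atypical receptor called. Ackr4 (ENSMUSG00000079355, chr9:104084157-104126933, minus strand) was at 4.82, 5.33 and 5.25 FPKM in control, 6.23, 6.25 and 5.23 in dbdb and 6.30, 6.30 and 6.50 in dbR. The dbR libraries lay above all others, and control and dbdb overlapped through dbdb replicate 3. Ackr4 was upregulated by 0.31 ± 0.09 in dbR vs. control (adjusted p = 0.0311), a call lost without any 1 control or dbR library (adjusted p = 0.0521 to 0.0959) and with quantile normalization (0.0769). Without dbdb replicate 3 it was also called in dbdb vs. control (0.28, adjusted p = 0.0415). Ackr2, the scavenger of inflammatory CC chemokines, was at 0.109, 0.172 and 0.252 in control, 0.275, 0.268 and 0.442 in dbdb and 0.156, 0.233 and 0.178 in dbR. The dbdb libraries were the highest 3, at 0.64 ± 0.27 in dbdb vs. control (unadjusted p = 0.0404, adjusted p = 0.111).

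The rest of the family was at or near the limit of detection. Ccl17, Xcl1, Ccl8, Cxcl17, Ccl3 and Ccl4 were tested but listed at 0 in at least 1 library. A further 17 members were above 0 in some library with a mean under 0.1 FPKM and were not tested. They were the receptors Ccr3, Ccr4, Ccr7, Ccr8, Cxcr1, Cxcr2, Cxcr5 and Xcr1, the ligands Ccl7, Ccl11, Ccl20, Ccl22, Ccl24, Cxcl2, Cxcl5 and Cxcl15, and Ackr1. Of these, Xcr1, a receptor of cross-presenting dendritic cells, was at 0.205, 0.156 and 0.144 in control, 0.00873, 0.0170 and 0.108 in dbdb and 0.0217, 0.0547 and 0.0359 in dbR, or about 25, 18 and 18 fragments, then 1, 2 and 13, then 3, 7 and 4. All 6 diabetic libraries lay below the control libraries. With no limit on low values Xcr1 would be called against control in dbdb (-0.95, adjusted p = 0.0255) and in dbR (-0.96, adjusted p = 0.0257), and Cxcr5, the receptor of follicular lymphocytes, for dbR vs. control (-0.66, adjusted p = 0.0218). Of 5 dendritic cell markers, Itgax was called lower in dbdb vs. control (20%, against 13.4% of all genes). Their summed FPKM lay at 13.6 to 21.2 in control, 8.54 to 105 in dbdb, with the highest in dbdb replicate 3, and 11.8 to 23.3 in dbR. For the B cell markers, which bear on Cxcr5, 1 of 2 tested (Cd79a) was called lower in dbdb vs. control. Ms4a1 was at 0 in some libraries, and the sums were 0.925 to 1.04, 0.268 to 0.358 and 0.204 to 0.771. The part of these cells in the levels of Xcr1 and Cxcr5 was not tested. The remaining 12 IDs were listed at 0 in all 9 libraries: Ccl1, Ccl26, Cxcl3, Ccr1l1, Ccl21b, Ccl27b and 6 further IDs of Ccl21a, Ccl21c and Ccl27a.

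Genes downstream of the receptors were examined with a list of 56 genes, 53 of them tested. In dbdb vs. control 2 were upregulated (3.77%, against 13.1% of all genes) and 13 downregulated (24.5%, against 13.4%), with a median of -0.06. Without dbdb replicate 3 the counts were again 2 and 13, although Fgr was then not called. Those with the largest change were Dock2, an activator of Rac in leukocytes, at -1.14 ± 0.19 (adjusted p = 0.00228), Plcb2, a phospholipase C, at -1.05 ± 0.23, the Src kinase Fgr at -1.03 ± 0.26, and Rac2, the leukocyte Rac, at -0.92 ± 0.23. Stat3 was upregulated by 0.87 ± 0.14 (adjusted p = 0.00159). Several of these genes are known from leukocytes, and the marker values given above apply to them too. Between dbR and dbdb 0 of 53 were called, with a median of 0.05. For dbR vs. control 1 was called higher and 5 lower (1.89% and 9.43%, against 12.3% and 11.8% of all genes), or 2 and 5 without dbdb replicate 3.

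Of 36 tested genes of NF-kappaB and the cytokines that induce chemokines, 6 were upregulated and 4 downregulated in dbdb vs. control, with a median of 0.04. These are 16.7% and 11.1%, near the 13.1% and 13.4% of all genes, and without dbdb replicate 3 they were 3 and 4. Il34, a ligand of CSF1R made by tubules, was downregulated by 1.86 ± 0.30, and Tnf by 1.29 ± 0.29. Cebpb was upregulated by 1.48 ± 0.27, the alarmin Il33 by 1.41 ± 0.16, Jun by 0.91 ± 0.17 and Nfkbiz by 0.83 ± 0.24, the last not called without dbdb replicate 3. None was called in dbR vs. dbdb, or 1 (Tnfrsf1b) without dbdb replicate 3. Il33 means were 1.75 ± 0.271 FPKM in control, 4.83 ± 0.806 in dbdb and 7.54 ± 1.06 in dbR.

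Among 13 tested chemokine-like ligands and their receptors outside the name rule, Mif, a ligand of CXCR4 and CD74, was upregulated by 0.48 ± 0.10 and S1pr1 by 0.45 ± 0.12 in dbdb vs. control (15.4% of the list, against 13.1% of all genes). With dbdb replicate 3 left out, Mif was called higher, Cd74 was called lower and S1pr1 was not called. Rarres2, which encodes chemerin, a ligand of CMKLR1 from fat and liver, was upregulated in dbR vs. dbdb by 0.92 ± 0.14 (adjusted p = 0.0282), with means of 12.8 ± 1.66, 13.4 ± 0.640 and 25.8 ± 5.49 FPKM. Of 17 tested peptidases and proteoglycans that cut or bind chemokines, 4 were downregulated in dbdb vs. control (23.5%, against 13.4% of all genes), namely Mmp12 at -1.45 ± 0.27, Sdc2 at -0.57 ± 0.09, and Adam10 and Adam17 at -0.32 ± 0.05 and -0.25 ± 0.07. ADAM10 and ADAM17 are the sheddases of CX3CL1 and CXCL16, whose own transcripts were not called. Gpc3, a glypican, was upregulated in dbR vs. dbdb by 0.65 ± 0.09 (adjusted p = 0.0234). In dbR vs. control 5 of the 17 were called higher and 2 lower (29.4% and 11.8%, against 12.3% and 11.8% of all genes).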

How the data were processed

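RNA-seq of renal cortex was used from 9 mice (3 each in the control, dbdb and dbR groups, grouped by the sample labels). Per the paper's methods, the authors depleted rRNA, built directional libraries, aligned paired reads to GRCm38.p2 with TopHat2 2.0.9 and computed FPKM per transcript with Cufflinks 2.1.1. The deposited FPKM values of mRNAs were summed per gene here, and the lncRNA tables were not used. For genes with 1 transcript, whole fragments were estimated from the steps of low values and GENCODE lengths: of 117 member values under 10 fragments, 115 lay within 0.2 of a whole number. These fragment numbers cover counting error only and entered no test.

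Genes with a mean of at least 0.1 FPKM (14537) were fitted as log2(FPKM + 0.1) in 1 model of the 3 groups with limma 3.58.1 (R 4.3.3, variance trend). The p-values are two-sided, Benjamini-Hochberg adjusted over all these genes per comparison and called under 0.05. Fold changes are on this scale and understate the change of low genes. Figures and counts used Python with pandas. The fit was tested on simulated data. The members and the hand-written lists (5 of pathways, 14 of markers) were chosen with earlier results of these data known. Members were named if called, or if their unadjusted p was below 0.05 for dbR against dbdb, with all 9 values, the 5 highest ligands and receptors with group means, and at most 6 called genes per list. Other members with values were named after these were seen. Some items, 1 tested member among them, are not reported here, although they stay in the fit and in all counts. Coordinates are from GENCODE M21 (GRCm38), and upstream sequences from RefSeq (GRCm38.p6). Alternatives were the pseudocount, the limit on low values, scaling, the libraries in the fit, a replicate block, the variance trend, single transcripts and leaving out each library.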

Additional observations from a re-analysis of the deposited data

How the results depend on the processing

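Of 35 member results with an unadjusted p under 0.05, all kept their direction in the 687 alternative values that could be computed; 582 of these values stayed on the same side of the threshold, 88 lost the call and 17 gained it. Of 17 called results, 4 kept the call in every alternative. In dbdb vs. control the 10 called members became 5 of 16 among genes of at least 1 FPKM (31.2%, against 30.1% of all genes), where fewer members are tested, and 1 of 36 in the fit of single transcripts (2.78%), where 9.57% of all transcripts were called. In dbR vs. dbdb 1 member was called, in place of 0, among genes of at least 1 FPKM, with scaling to the 75th percentile and with quantile normalization. These are 6.25%, 2.70% and 2.70% of the members tested, where 1.43%, 1.40% and 1.61% of all genes were called. In dbR vs. control the 7 called members became 4 among single transcripts (11.1%, against 8.50% of all transcripts). Without 1 library each, the members called were 5 to 9 in dbdb vs. control, 0 to 2 in dbR vs. dbdb and 3 to 8 in dbR vs. control. These are 13.5% to 24.3%, 0% to 5.41% and 8.11% to 21.6% of the members. Over all genes the same fits called 19.0% to 26.3%, 0.0138% to 0.970% and 17.1% to 24.6%. Over all genes, the 108 calls of dbR vs. dbdb became 31 with no limit on low values, 166 among genes of at least 1 FPKM, 203 with the 75th percentile, 234 with quantile normalization, 22 with only the 6 libraries compared, 18 with no variance trend, 5 among single transcripts and 2 to 141 without 1 library each. The cause was not tested for the settings other than the limit on FPKM. With the replicate number as a block, 6 members were called in dbdb vs. control (16.2%, against 23.0% of all genes) and 23 genes in dbR vs. dbdb. However, the numbers do not pair the mice: deviations of same-numbered libraries correlated at -0.17 to 0.06, over 9 pairs. FPKM hides depth, and members with under 10 fragments per library can show only large differences.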
